A study of Mus musculus with 6 samples.

Results

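Expression of 9 genes of nonessential amino acid synthesis and transsulfuration, Cth, Cbs, Asns, Gpt2, Got1, Got2, Aldh18a1, Pycr1 and Glul, was analyzed in mouse small intestinal organoids. They were taken by name from the 55416 genes of the deposited table, all 9 were found, and all 9 passed the filter on low values. The organoids, which are 3D cultures grown from isolated crypts, came from the duodenum and jejunum of 3 mice of strain C57BL/6, all with the genotype label WT. The cells of each mouse were treated with LDL at 50 μg/ml or with PBS as control and were sequenced after 5 days in culture, so that 3 LDL-treated and 3 PBS-treated libraries were compared and a replicate number stands for 1 mouse. The comparison asks which of these genes differ with LDL, the cholesterol-carrying lipoprotein of plasma. Each library is 1 bulk culture that can hold all epithelial cell types, so a lower count can come from fewer cells of a type or from less RNA per cell, which cannot be told apart.

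Each library held 22061545 to 31073360 reads on genes. Reads were found on 35781, 29870 and 32751 genes in the LDL-treated libraries of mice 1, 2 and 3 and on 29285 to 30018 genes in the PBS-treated libraries. The animal identifier of mouse 3 has a different prefix from those of the other mice, although the genotype label is WT for all. Calls were therefore also made without mouse 3. Epcam, a general epithelial marker, had between 20049 and 24334 normalized counts. Among 8 markers of fibroblasts, muscle and immune cells, Acta2 reached between 13.8 and 51.0 normalized counts and the other 7 no more than 12.2, with Col1a2, Pdgfra and Des at 0 in 1 library each.

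Nonessential amino acids are those that cells can make themselves, mostly from intermediates of glycolysis and the tricarboxylic acid cycle with glutamate or glutamine as nitrogen donor. Transsulfuration passes the sulfur of homocysteine, a product of methionine, to cysteine: cystathionine beta-synthase (Cbs) makes cystathionine and cystathionine gamma-lyase (Cth) splits it into cysteine and other products. Cysteine feeds protein synthesis, glutathione, taurine and hydrogen sulfide. Intestinal epithelium is known for heavy use of glutamine and glutamate, and it releases alanine, proline and citrulline to the body. Several of these genes, Asns above all, are textbook targets of ATF4, the transcription factor that is made when amino acids run short or the endoplasmic reticulum is stressed.

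RNA-Seq analysis revealed lower levels of Cth and Gpt2 in LDL-treated organoids. The mean normalized count of Cth was 3.45-fold lower with LDL (log2 fold change -1.89, standard error 0.33) and that of Gpt2 was 2.93-fold lower (log2 fold change -1.56, standard error 0.17). Calls came from limma on log2(normalized count + 1) and needed more than 1.5-fold and an adjusted p under 0.05 (Benjamini-Hochberg over 18459 genes). By this rule 2 of the 9 genes were lower and 0 were higher, whereas 0.395% of all genes tested were called lower and 0.878% higher. With the mouse as a block, which compares LDL with PBS within each mouse, 4 genes were lower (Cth, Gpt2, Asns and Pycr1) and 1, Glul, was higher, beside 3.46% and 5.68% of all genes. With DESeq2 on the recovered reads the same 4 lower genes and Glul were called, where 1.89% of all genes were lower and 4.58% higher. With edgeR only Gpt2 was called, where 0.379% of all genes were lower and 1.01% higher. At an unadjusted limma p under 0.05 and more than 1.5-fold, 4 of the 9 were lower and 1 was higher, beside 4.2% and 6.34% of all genes.

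In all, 7 of the 9 genes had a lower mean with LDL and 2, Got2 and Glul, a higher mean. The ranges of the 2 treatments were separate for 4 lower genes (Cth, Asns, Gpt2 and Pycr1) and 2 higher genes (Got2 and Glul). Of all genes tested, 12.3% were lower and 11.9% were higher without overlap. The median log2 fold change of the 9 genes was -0.41, beside -0.016 for all genes tested. The mice differed in the size of the change: of the 3 mice, mouse 2 showed the smallest change in all 7 genes with a lower mean and the largest in both genes with a higher mean.

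**Figure D1:**
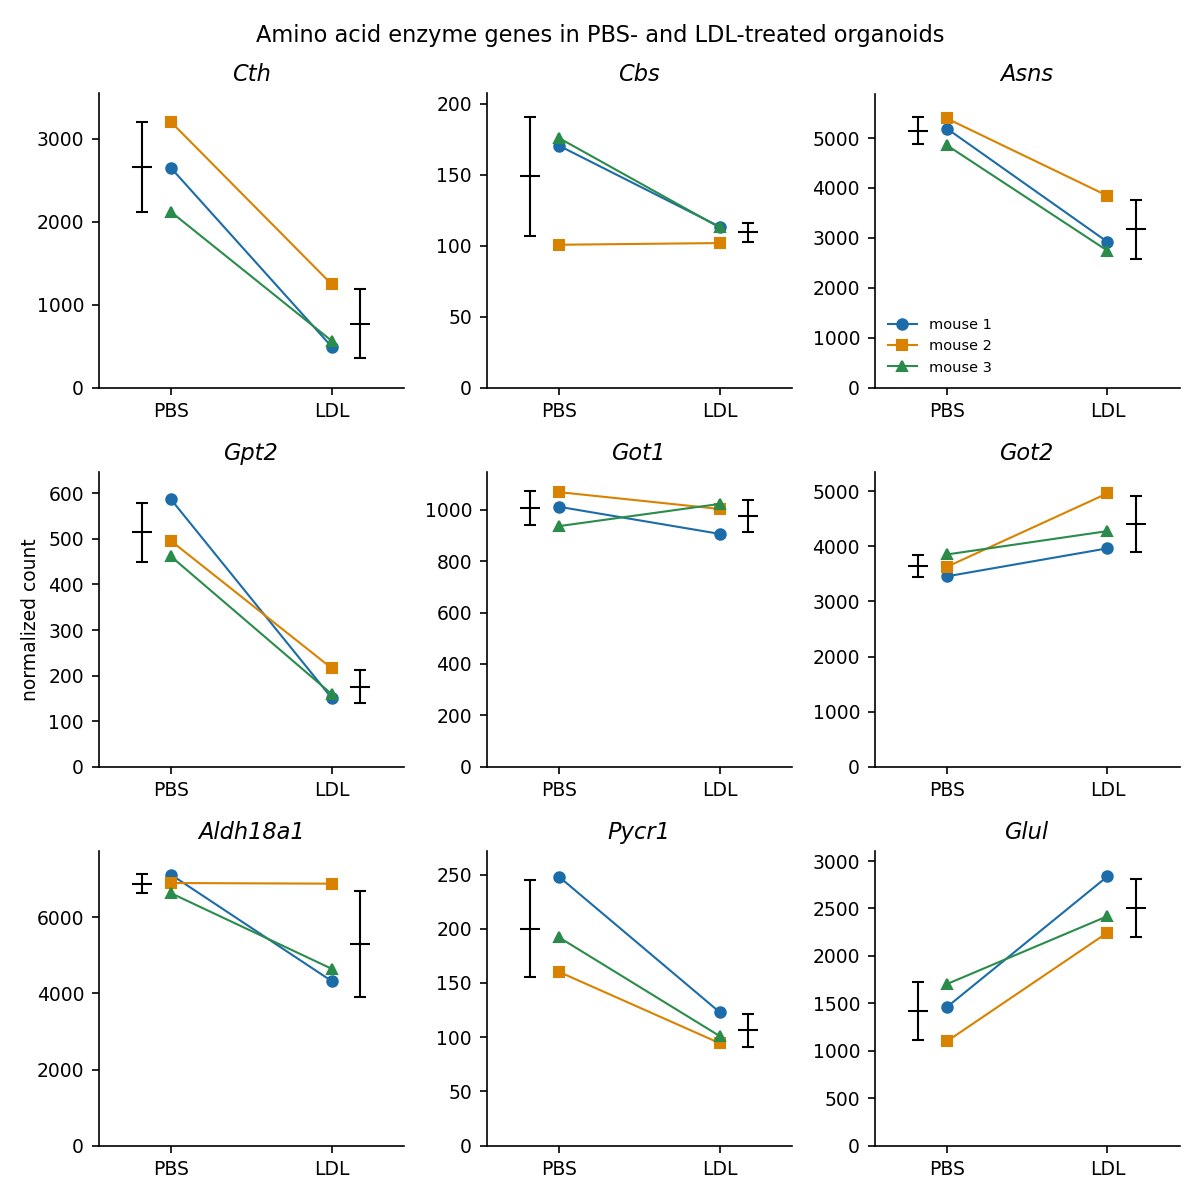
Normalized counts of the 9 genes in the 3 PBS-treated and 3 LDL-treated libraries, 1 panel per gene, with the normalized count on the vertical axis. Each line joins the cultures of 1 mouse, and black marks show mean ± SD (n = 3). All 3 lines slope downward for Cth, Asns, Gpt2, Aldh18a1 and Pycr1 and upward for Got2 and Glul.

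Upstream DNA of Asns, Pycr1, Got1 and Gpt2 is shown because ATF4 is known to bind a composite C/EBP-ATF element and because these 4 genes include sequences with and without its core letters. The core letters TGATGNAA, or TTNCATCA on the opposite strand, were searched in RefSeq promoters of GRCm38.p6 from 250 bases before to 50 bases after the start site. Promoters of 8 of the 9 genes were in the RefSeq table, and Cth was not matched. The letters were present in 3 of the 8, and in 1304 of all 32851 promoters of this length (3.97%). The 150 bases before the start site are printed 5′ to 3′ on the gene's strand, with the motif in capitals.
Asns, chr6:7693210-7693359, minus strand: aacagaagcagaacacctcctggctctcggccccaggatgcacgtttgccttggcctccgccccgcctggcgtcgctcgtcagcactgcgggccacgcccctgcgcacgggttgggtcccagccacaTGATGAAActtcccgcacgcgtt
Pycr1, chr11:120643749-120643898, minus strand: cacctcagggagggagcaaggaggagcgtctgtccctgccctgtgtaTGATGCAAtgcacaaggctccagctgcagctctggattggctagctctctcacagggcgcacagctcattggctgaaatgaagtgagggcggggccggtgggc
Got1, chr19:43524606-43524755, minus strand: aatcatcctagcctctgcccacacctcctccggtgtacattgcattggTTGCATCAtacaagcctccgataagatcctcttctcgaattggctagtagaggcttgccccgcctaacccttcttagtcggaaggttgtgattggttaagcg
Gpt2, chr8:85492426-85492575, plus strand, without a match: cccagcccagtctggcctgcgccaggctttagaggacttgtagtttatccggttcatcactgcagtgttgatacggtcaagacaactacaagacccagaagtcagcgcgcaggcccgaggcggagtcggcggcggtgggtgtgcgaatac

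The match of Asns reads TGATGAAA and starts 23 bases before the start site. In Pycr1 it reads TGATGCAA, 103 bases before the start site, and in Got1 it lies on the opposite strand as TTGCATCA, 102 bases before. Asns and Pycr1 were lower with LDL in the fit with the mouse block. Got1 holds the letters too and had nearly equal means in both treatments, while Gpt2, which was called lower without the block, does not hold them in this window. Binding of ATF4 was not measured, and a link between these letters and the changes was not tested.

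Cth lies on chromosome 3 of GRCm39 from 157599868 to 157630739 on the minus strand (ENSMUSG00000028179) and encodes the enzyme that releases cysteine from cystathionine. Its normalized counts were 495, 1247 and 565 in the LDL-treated organoids of mice 1, 2 and 3 and 2647, 3200 and 2117 in the PBS-treated ones. Every LDL-treated value lay below every PBS-treated value, and the LDL-treated culture of mouse 2 was more than double the others with LDL. Within a mouse, the count was 5.35-fold, 2.57-fold and 3.74-fold lower with LDL. The means were 769 ± 415 and 2654.5 ± 542 (SD, n = 3), and the 95% interval of the log2 fold change ran from -2.66 to -1.13. The adjusted p was 0.0421 from limma without the block and 0.000603 with it, where the standard error dropped to 0.17. It was 0.0516 from edgeR.

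The call of Cth without the block rested on most of the libraries. It held without the LDL-treated library of mouse 2 (adjusted p = 0.0002176 from limma) but not without that of mouse 1 (0.0801) or mouse 3 (0.2155). It was also lost when a PBS-treated library was removed, that of mouse 1 (0.1651), mouse 2 (0.1641) or mouse 3 (0.1168), all from limma. With both libraries of mouse 3 left out, the adjusted p was 0.6052 without the block and 0.0252 with it, the latter within the threshold. The log2 fold change stayed between -2.30 and -1.64 when single libraries were left out.

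Cbs, on chromosome 17 from 31827868 to 31856646, minus strand (ENSMUSG00000024039), encodes the enzyme before Cth in the route. Its normalized counts were low, at 113, 102 and 113 with LDL and 170, 101 and 176 with PBS. Mice 1 and 3 had less Cbs with LDL, mouse 2 had about the same in both cultures, and the groups overlapped. The log2 fold change was -0.40 with a 95% interval from -0.94 to 0.14 (adjusted p = 0.395 from limma, and 0.170 with the block).

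Gpt2 lies on chromosome 8 from 86218810 to 86255577, plus strand (ENSMUSG00000031700), and encodes the mitochondrial alanine aminotransferase, which makes alanine and 2-oxoglutarate from pyruvate and glutamate or runs in reverse. Its normalized counts were 151, 216 and 160 with LDL and 587, 496 and 462 with PBS. The groups were far apart, with the highest LDL-treated culture, that of mouse 2, well under the lowest PBS-treated culture. The count was 3.88-fold lower in mouse 1, 2.29-fold lower in mouse 2 and 2.89-fold lower in mouse 3. The means were 176 ± 35.5 and 515 ± 64.8 (SD, n = 3), with a 95% interval of the log2 fold change from -1.95 to -1.16. The adjusted p was 0.0104 from limma, 0.000836 with the block and 0.0114 from edgeR. The call was lost when the LDL-treated culture of mouse 3 (0.0825) or the PBS-treated culture of mouse 1 (0.0700) or mouse 2 (0.0512) was left out, and leaving out both cultures of mouse 3 gave 0.4106, all from limma. With the block and without mouse 3 it was called (0.0308). Gpt, the cytosolic enzyme of the same reaction, had means of 229 ± 54.7 with LDL and 218 ± 58.0 with PBS (SD, n = 3).

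Asns, on chromosome 6 from 7671667 to 7728461, minus strand (ENSMUSG00000029752), encodes asparagine synthetase, which moves the amide nitrogen of glutamine to aspartate. Its normalized counts were 2919, 3843 and 2743 with LDL and 5190, 5392 and 4856 with PBS. All LDL-treated cultures were below all PBS-treated cultures, with mouse 2 again the highest of its group. Within a mouse the count was 1.78-fold, 1.40-fold and 1.77-fold lower. The log2 fold change was -0.71 (95% interval -1.03 to -0.40). Asns was not called without the block (adjusted p = 0.0538 from limma) and was called with it (0.00273). After quantile normalization it was called without the block (0.0401). With the block and without mouse 3, the call was lost (0.0837).

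Got1 (chromosome 19, 43488188 to 43513674, minus strand, ENSMUSG00000025190) and Got2 (chromosome 8, 96590760 to 96615190, minus strand, ENSMUSG00000031672) encode the cytosolic and the mitochondrial aspartate aminotransferase, which exchange amino groups between glutamate and aspartate in the malate-aspartate shuttle. Got1 had normalized counts of 906, 1003 and 1023 with LDL and 1012, 1069 and 936 with PBS. The groups overlapped, and the log2 fold change was -0.04 (95% interval -0.27 to 0.18, adjusted p = 0.861 from limma). Got2 had 3964, 4963 and 4277 normalized counts with LDL and 3455, 3628 and 3853 with PBS. Every LDL-treated value exceeded every PBS-treated value, but the difference was small, with a log2 fold change of 0.27 (95% interval 0.02 to 0.51). The adjusted p of Got2 was 0.224 from limma and 0.0758 with the block, so it was not called in either fit.

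Aldh18a1 and Pycr1 encode the first enzyme of proline synthesis from glutamate, which also serves ornithine synthesis, and a mitochondrial enzyme of its last step. Aldh18a1 (chromosome 19, 40538698 to 40576949, minus strand, ENSMUSG00000025007) had normalized counts of 4326, 6882 and 4648 with LDL and 7120, 6899 and 6633 with PBS. Mice 1 and 3 had clearly less with LDL, whereas the cultures of mouse 2 were nearly equal, so that the groups overlapped. Its log2 fold change was -0.41 (95% interval -0.80 to -0.02, adjusted p = 0.236 from limma, and 0.0730 with the block). It was called lower without the LDL-treated library of mouse 2 (log2 fold change -0.62, adjusted p = 0.004088 from limma).

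Pycr1 (chromosome 11, 120526484 to 120539269, minus strand, ENSMUSG00000025140) had 123, 94.6 and 101 normalized counts with LDL and 248, 160 and 192 with PBS. The groups did not overlap, and each mouse had less with LDL, by 2.01-fold, 1.69-fold and 1.90-fold. The log2 fold change was -0.89 (95% interval -1.36 to -0.42). Pycr1 was not called without the block (adjusted p = 0.0780 from limma), was called with it (0.00528), and lost that call without mouse 3 (0.1038). Pycr3, which encodes another enzyme of this step, had means of 773 ± 235 with LDL and 1077 ± 97.7 with PBS (SD, n = 3) and was not called in either fit.

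Glul, on chromosome 1 from 153775690 to 153785469, plus strand (ENSMUSG00000026473), encodes glutamine synthetase, which adds ammonia to glutamate. Its normalized counts were 2838, 2246 and 2419 with LDL and 1461, 1100 and 1703 with PBS. All LDL-treated cultures were above all PBS-treated cultures, by 1.94-fold, 2.04-fold and 1.42-fold within a mouse. The log2 fold change was 0.83 (95% interval 0.44 to 1.22). The adjusted p was 0.0613 from limma without the block and 0.00297 with it, and of these 2 fits the one with the mouse called Glul higher. This call held without mouse 3 (0.0198 from limma with the block).

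**Figure D2:**
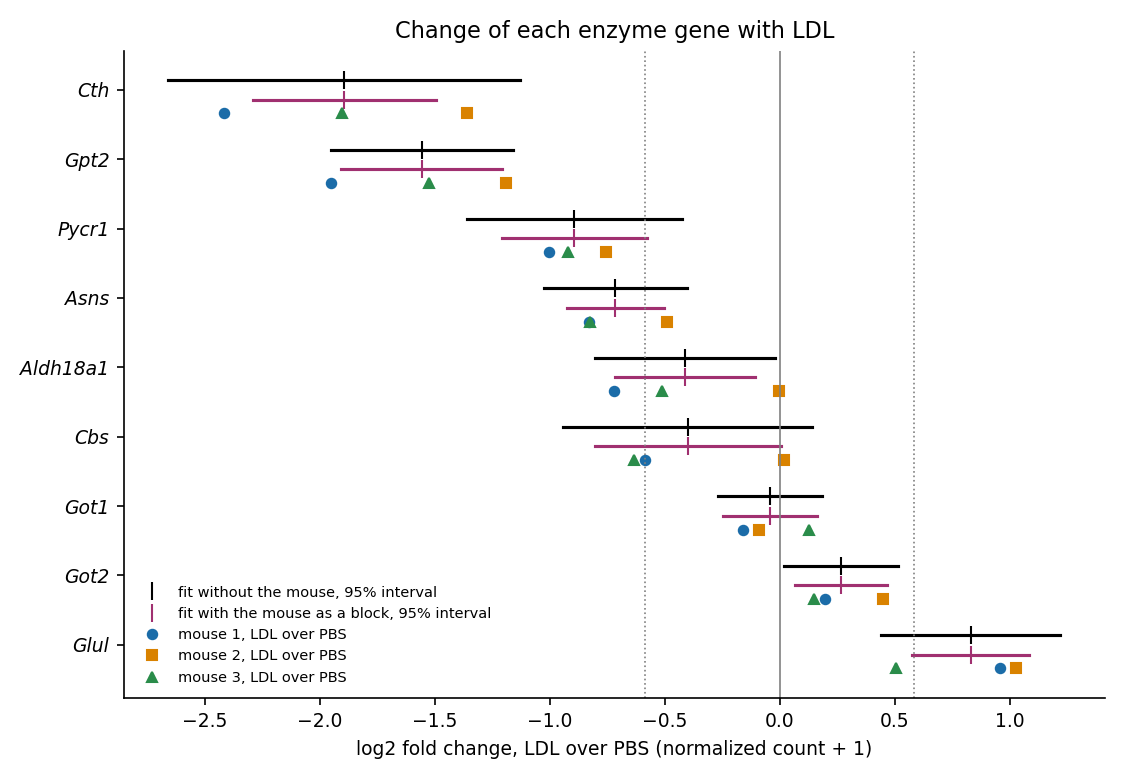
Log2 fold change of LDL over PBS for the 9 genes, with black marks for limma without the mouse and magenta marks for limma with the mouse block, and bars for 95% intervals. Dotted lines mark 1.5-fold in each direction. The black intervals of Cth, Gpt2, Asns, Pycr1 and Aldh18a1 lie below 0, those of Glul and Got2 lie above 0, and those of Cbs and Got1 cross it.

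Exons of Asns, Glul, Got2, Aldh18a1 and Pycr1 overlap exons of genes on the other strand, and the authors' strand setting was not given in the sources used here. The overlapping genes in the table had between 0 and 30.6 normalized counts, and the pseudogene Got2-ps1 had between 32.3 and 44.8, each far below its partner among the 9.

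Paired enzymes were also compared as ratios of normalized counts within a library, in which transcript lengths were not taken into account. Asns divided by Glul was 1.03, 1.71 and 1.13 with LDL and 3.55, 4.90 and 2.85 with PBS. The ratio of these genes, which use and make glutamine, was lower in each mouse, without overlap between groups (log2 difference -1.55). Cth divided by Cbs was 4.37, 12.2 and 5.01 with LDL and 15.5, 31.8 and 12.04 with PBS, lower in each mouse but with overlap, since the LDL-treated culture of mouse 2 exceeded the PBS-treated culture of mouse 3. Got2 divided by Got1 was 4.37, 4.95 and 4.18 with LDL and 3.42, 3.40 and 4.11 with PBS, without overlap and with nearly no difference in mouse 3. Aldh18a1 divided by Pycr1 was 35.1, 72.8 and 45.9 with LDL and 28.7, 43.0 and 34.5 with PBS, higher in each mouse and with overlap. The exact two-sided permutation test over libraries gave p = 0.1 for Asns with Glul and for Got2 with Got1 and p = 0.2 for the other pairs, and 0.2 for each of the 4 after Benjamini-Hochberg adjustment. With 3 libraries against 3 the test cannot go below 0.1.

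**Figure D3:**
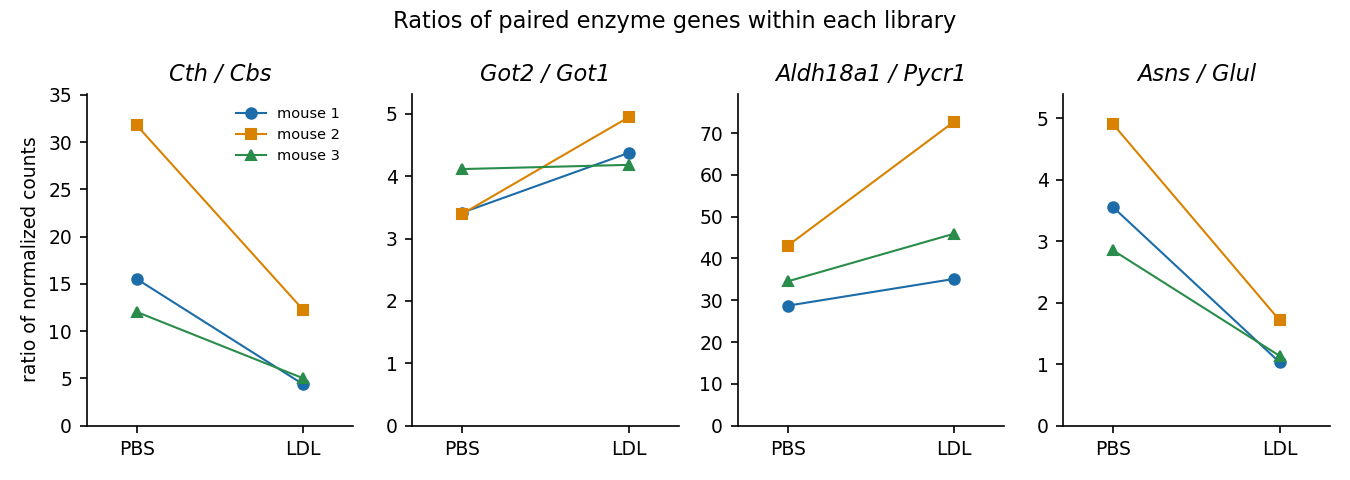
Ratio of the normalized counts of paired enzymes in each library on a linear axis, 1 panel per pair, with PBS-treated and LDL-treated cultures of 1 mouse joined by a line. The Asns to Glul ratio lies between 1.03 and 1.71 with LDL and between 2.85 and 4.90 with PBS.

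Levels of different genes were compared as normalized counts per kilobase of the canonical transcript. In PBS-treated organoids the order from the highest was Aldh18a1 (1952 ± 69.2), Cth (1459 ± 298), Got2 (1436 ± 78.4), Asns (1050 ± 55.3), Glul (834 ± 178), Got1 (483 ± 31.9), Pycr1 (106 ± 23.6), Gpt2 (98.2 ± 12.4) and Cbs (23.9 ± 6.74), each as mean ± SD of 3 libraries. Cth with Got2, Asns with Glul and Pycr1 with Gpt2 overlapped between libraries, so their order is not set. In LDL-treated organoids Got2 (1733 ± 201), Aldh18a1 (1499 ± 395) and Glul (1468 ± 179) stood at the top and overlapped. Cth stood at rank 6 with 423 ± 228, behind Asns (646 ± 121) and Got1 (469 ± 29.9), and it overlapped both, so its place among these is not set. Glul exceeded Asns in every LDL-treated library on this scale. Pycr1 (56.4 ± 7.95), Gpt2 (33.5 ± 6.76) and Cbs (17.6 ± 1.05) stayed last. Cth was thus far above Cbs in both treatments on this scale. When the length of all annotated exons was used instead, Got2 stood above Cth and Gpt2 above Pycr1 in PBS-treated organoids.

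Beyond the 9 genes, 43 other genes of amino acid synthesis and use were listed, of which 39 were tested. Mpst, Psat1 and Psph were lower and Gclc was higher, beside 0.395% and 0.878% of all genes. The fit with the mouse block called 7 lower (also Otc, Cps1, Nags and Qdpr) and 2 higher (also Ethe1). With the block 3.46% of all genes were called lower and 5.68% higher. The median log2 fold change of the 39 genes was -0.20, with 25 lower and 14 higher means. When the LDL-treated culture of mouse 2 was left out, limma without the block called 12 lower and 5 higher, and 6.14% of all genes lower and 6.39% higher. When any other library but the LDL-treated one of mouse 1, which gave 1 lower and 0 higher, was left out, it called 0 in each direction. With the block and without mouse 3 it called 0 in each direction as well.

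Around transsulfuration, 10 genes that use cysteine were tested, of which 4 had a lower and 6 a higher mean with LDL. Without the block 1 was called lower and 1 higher, beside 0.395% and 0.878% of all genes. Mpst, which encodes a mercaptopyruvate sulfurtransferase that makes hydrogen sulfide from a cysteine product, had 168, 247 and 248 normalized counts with LDL and 462, 445 and 440 with PBS (log2 fold change -1.04, adjusted p = 0.0345 from limma). Gclc, the catalytic subunit of the enzyme that begins glutathione synthesis, had 6734, 4433 and 5826 with LDL and 3155, 3007 and 3274.5 with PBS (log2 fold change 0.83, adjusted p = 0.0475 from limma). The groups did not overlap for either gene, and mouse 2 had the smallest rise of Gclc. The call of Gclc was lost when genes needed a mean of at least 50 (0.0513) and after quantile normalization (0.0603), both from limma. Gclm, its partner, passed the p threshold (adjusted p = 0.0385 from limma) but at a log2 fold change of 0.57 was under 1.5-fold and so was not called. Ethe1, a mitochondrial sulfur dioxygenase gene, had 350, 281 and 445 with LDL and 214, 170 and 197 with PBS, and was called with the block (adjusted p = 0.0711 from limma without it and 0.00521 with it). None of the 6 methionine cycle genes tested was called in either fit.

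Of 5 genes of serine and glycine synthesis, 2 were called lower without the block, where 0.395% of all genes were called lower. Psat1 encodes the aminotransferase and Psph the phosphatase of the pathway from 3-phosphoglycerate to serine. Psat1 had 2353, 3138 and 2389 normalized counts with LDL and 4723, 4558 and 3945 with PBS (log2 fold change -0.76, adjusted p = 0.0461 from limma). Psph had 333, 453 and 312 with LDL and 757, 712 and 614 with PBS (log2 fold change -0.94, adjusted p = 0.0411 from limma). Both showed no overlap. Phgdh, the first enzyme gene of this pathway, had overlapping groups with means of 2883 ± 407 and 3447 ± 227 (SD, n = 3) and was not called.

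Of 7 genes on the arginine and urea cycle list, 3 were lower with the mouse block, beside 3.46% of all genes, and none without it. Otc, the ornithine transcarbamylase gene whose product makes citrulline, had 659, 1748 and 841 normalized counts with LDL and 1943, 2810 and 2083 with PBS (adjusted p = 0.00266 from limma with the block). Cps1, which makes carbamoyl phosphate, had 17476, 43244 and 20383 with LDL and 40690, 47533 and 42804.5 with PBS, with overlap (0.0319 with the block). Nags, which makes the activator of Cps1, had 177, 505 and 294 with LDL and 519, 675 and 532 with PBS (0.0157 with the block). In these 3 genes the LDL-treated culture of mouse 2 stood nearest to the PBS-treated cultures, as it did for Cth. Qdpr, which recycles the cofactor of tyrosine synthesis, was also lower with the block (0.0222 from limma). None of 5 proline and ornithine genes and 3 glutamine and glutamate genes on the list was called in either fit. Glud1 (0.00646), Oat (0.0169), Prodh (0.0325) and Pycr3 (0.0457) passed the adjusted p threshold in limma with the block. They were lower but under 1.5-fold.

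**Figure D4:**
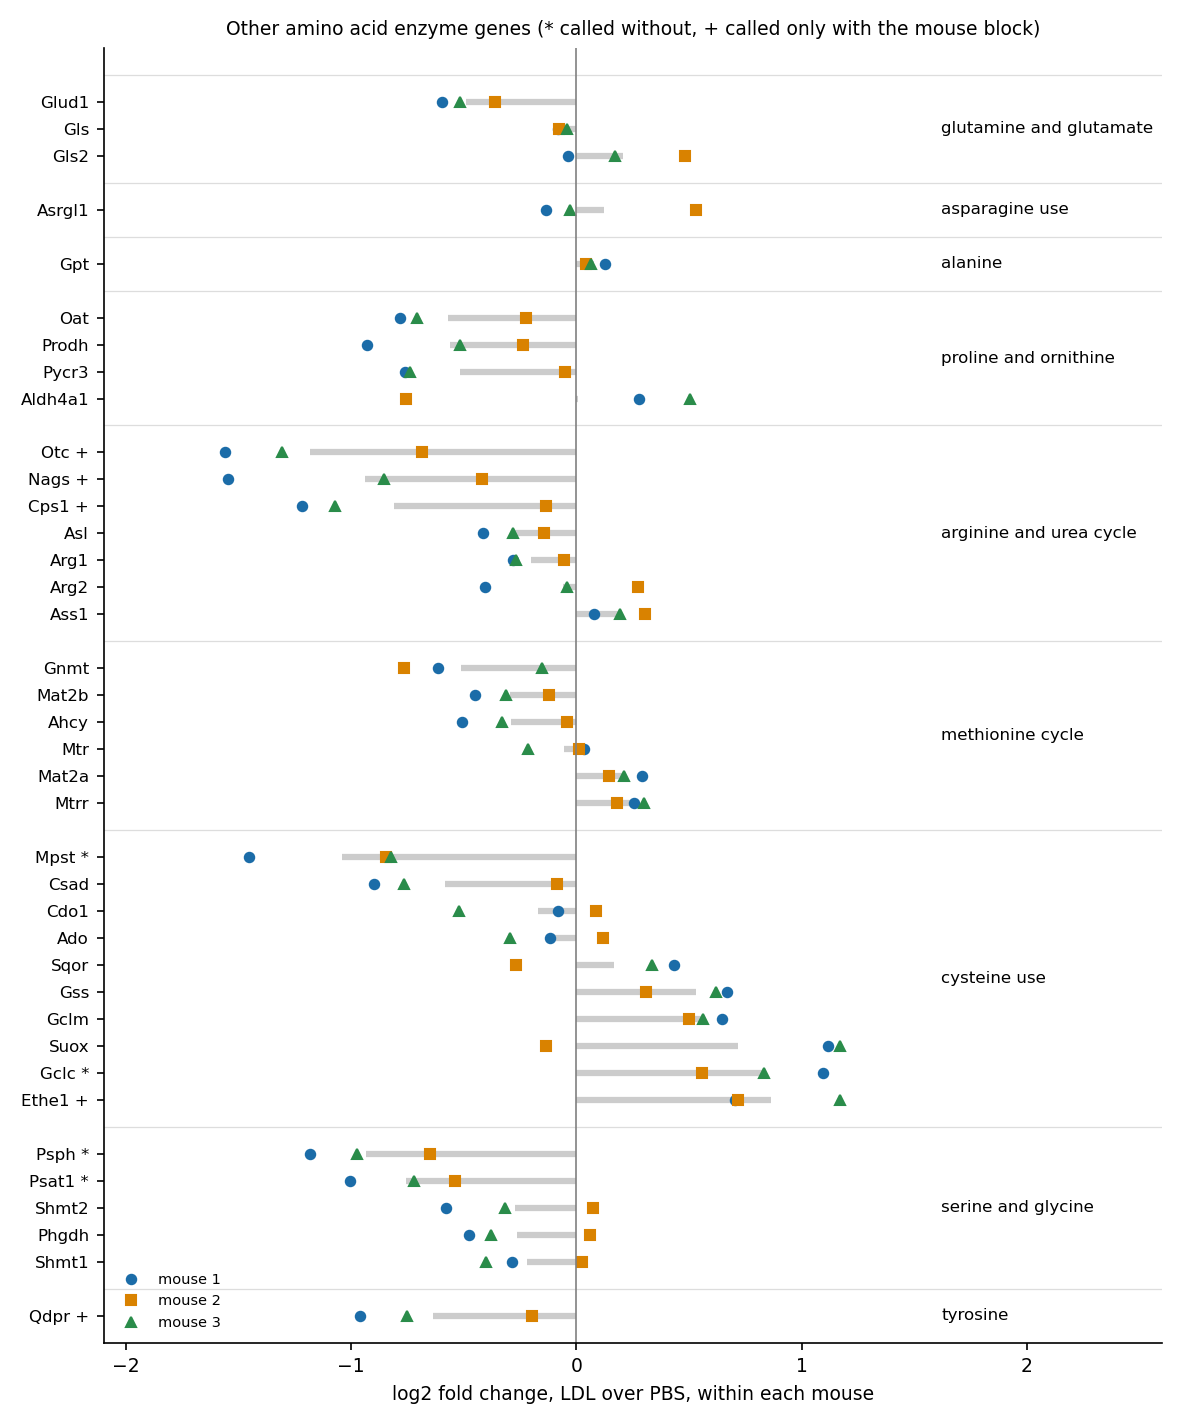
Log2 fold change of LDL over PBS in each mouse (points) and their mean (grey bar) for 38 of the 39 other amino acid genes tested, grouped by pathway. A star marks genes called by limma without the mouse block and a plus sign those called only with it. The stars stand at Mpst, Psat1 and Psph, which are lower, and at Gclc, which is higher.

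Atf4 and 11 genes it is known to regulate, outside the amino acid lists, included 3 lower genes and 0 higher genes without the block, where 0.395% and 0.878% of all genes were called. These were Atf5 (log2 fold change -1.63, adjusted p = 0.00137), Trib3 (-1.78, 0.0241) and Chac1 (-1.91, 0.00313), all from limma. Without both cultures of mouse 3 they had adjusted p of 0.224, 0.5095 and 0.2405 without the block, and 0.00936, 0.0506 and 0.0105 with it, all from limma. Trib3 was also lost without either culture of mouse 3 or the PBS-treated culture of mouse 1 or 2. Chac1 encodes an enzyme that degrades glutathione, Trib3 a pseudokinase that restrains ATF4, and Atf5 a transcription factor related to ATF4. With the block Ddit4, Nupr1 and Vldlr were also lower and Atf3 was higher, which gave 6 lower and 1 higher of 12. That fit called 3.46% of all genes lower and 5.68% higher. Without mouse 3 the block call of Nupr1 held (adjusted p = 0.0429 from limma), and those of Ddit4 (0.151), Vldlr (0.0818) and Atf3 (0.310) were lost. Vldlr (0.0532) and Atf3 (0.1497) were also lost without mouse 1. Nupr1 was lost without mouse 2, where its log2 fold change of -0.48 with the block was under 1.5-fold. Slc7a11, which encodes the cystine importer, had 4721, 1290 and 4390 normalized counts with LDL and 2094, 1341 and 1506 with PBS, higher in mice 1 and 3 and nearly equal in mouse 2. Neither fit called Slc7a11 (limma adjusted p = 0.338 without and 0.0536 with the block). Ddit3 had overlapping groups and was not called. The median log2 fold change of the 12 genes was -0.61, with 10 lower and 2 higher means. Atf4 itself had 4370, 5427 and 4840 normalized counts with LDL and 5703, 6693 and 6833 with PBS, without overlap, and its log2 fold change of -0.39 was under 1.5-fold (adjusted p = 0.130 from limma, and 0.0144 with the block). Several of these genes and of the 9 were known from earlier results of these data when the list was written, so their direction is not independent evidence.

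Markers of epithelial cell types also differed between treatments. The 5 goblet cell markers summed to between 24449 and 29874 normalized counts with LDL and between 40940 and 46586 with PBS, with Fcgbp called lower (log2 fold change -0.86) and Clca1 called higher (2.81) in limma without the block, and Tff3 also lower with it. The 5 Paneth cell markers summed to between 10100 and 12622 with LDL and between 13228 and 21676 with PBS, with 0 called without the block, and Defa24 and Itln1 lower and Mmp7 higher with it. Of 7 enterocyte markers Alpi was called higher without the block (log2 fold change 2.13), and with it Alpi, Apoa4 and Fabp2 were higher and Lct was lower (log2 fold change -1.80). Sis and Anpep also had lower means but were not called in either fit, and the sums overlapped, at 24725 to 55403 with LDL and 22814 to 50021 with PBS. Of 5 stem cell markers 0 were called without the block, and with it Olfm4 and Smoc2 were lower and Ascl2 higher, with overlapping sums of 11315 to 18031 and 16112 to 31177. None of 5 enteroendocrine markers was called, 1 of 3 tuft cell markers (Pou2f3) was lower with the block, and of 6 general epithelial markers Krt8, Krt18 and Krt20 were higher with the block. Without mouse 3, the fit without the block called none of the 3 markers it had called, and the fit with the block called Krt18, Alpi, Apoa4 and Clca1 higher and Lct lower and no longer called the other markers named here. The part of these markers in the results of the 9 genes was not tested.

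The genes whose levels followed Cth and Gpt2 most closely were found among the 11930 genes that averaged at least 100 normalized counts, by Pearson correlation of log2 values over the 6 libraries. For Cth these were Pcnx1 (r = 0.9999), Lrig3 (r = 0.999) and Hpf1 (r = 0.9985), with log2 fold changes of -0.41, -0.74 and -0.13. For Gpt2 these were Itgb3bp (r = 0.9986), Epc1 (r = 0.9975) and Pi4ka (r = 0.9951), with log2 fold changes of -0.33, -0.29 and -0.36. A correlation over 0.95 was reached by 476 genes for Cth and by 183 for Gpt2. All 6 points share the treatment contrast, and the log2 fold changes of all 6 genes were smaller than those of Cth and Gpt2.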

How the data were processed

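RNA-Seq was analyzed in 6 libraries of organoids from 3 mice. Per the labels and the study's methods, the authors removed ribosomal RNA, made stranded libraries, demultiplexed with bcl2fastq 2.20, aligned reads to GRCm39 with STAR, counted with featureCounts and used DESeq2. The annotation and strand setting of the counting were not given in the sources used here. The signal deposited for a gene is its normalized count, whole reads divided by 1 size factor per library, and 100% of the values gave back whole reads (tolerance 0.01). No gene had been removed, and 12377 of 55416 genes held no read. GENCODE M39 gave names and positions for 54749 identifiers, and 667 were not found. Intervals cover the spread between libraries. Depth was 22061545 to 31073360 reads.

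Log2 values of normalized count + 1 were compared for the 18459 genes averaging 10 or more by limma 3.58.1 (lmFit and eBayes with a trend, two-sided) in R 4.3.3, with Benjamini-Hochberg adjustment over all of them. A call needed over 1.5-fold and an adjusted p under 0.05, and no mouse term was used. The treatments of a mouse share 1 animal identifier in the labels, and their deviations from the treatment means correlated across genes with r = 0.484, 0.421 and 0.462. The fit with the mouse as replicate block is therefore given where it changed a call. Other alternatives were pseudocounts of 0.5 and 5, no filter or a minimum mean of 50, scaling to the upper quartile, quantile normalization, each library left out, both libraries of mouse 3 left out, any fold change, an unadjusted p-value, and DESeq2 1.42.0 and edgeR 4.0.16 on recovered reads with and without the block. The block without 1 mouse was chosen after seeing the data. Ratios were compared by exact permutation tests with scipy 1.17.1. Figures were drawn with matplotlib 3.10.9 and tables with numpy 2.4.6 and pandas 2.3.3 in Python 3.11.15, and steps were tested on simulated data.

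The members, the gene lists and the tests were chosen with earlier results of these data known. All 9 members were named, as were listed genes called with or without the block and the 3 genes most correlated with each member called without it. Gpt, Gclm, Phgdh, Pycr3, Slc7a11, Ddit3 and the cell type markers named fall outside this rule and were chosen after their values were seen. Values of a few genes were left out of the text and plots. Promoter sequences came from RefSeq (GRCm38.p6), and their positions were not converted to GRCm39.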

Additional observations from a re-analysis of the deposited data

How the results depend on the processing

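Over all alternatives that gave a value, the 25 named genes kept their direction in each but 3 fits, all of them of Got1, whose log2 fold change was 0.01252 without the LDL-treated library of replicate 1, 0.004053 without the PBS-treated library of replicate 2 and 0.01793 with the replicate block and replicate 1 left out. Without single libraries it ranged from -0.09126 to 0.01252. Calls were less stable. The 2 members called lower became 4 with the replicate block, with no filter on the mean, with DESeq2 or edgeR and the block, with DESeq2 alone and at an unadjusted p, 3 after quantile normalization (with Asns), and 1 with edgeR alone. Members called higher went from 0 to 1 in the same fits except quantile normalization and edgeR alone, where they stayed at 0. Leaving out single libraries gave 0 to 5 lower and 0 to 1 higher members, and leaving out both libraries of replicate 3 gave 0 lower. The 5 lower and 1 higher came without the LDL-treated library of replicate 2, where 6.14% of all genes were lower and 6.39% higher.

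The 3 other amino acid enzymes called lower became 7 with the replicate block, with DESeq2 or edgeR and the block and at an unadjusted p, 0 to 12 without single libraries and 0 without both libraries of replicate 3. The 1 called higher became 2 with the replicate block, with no filter, with edgeR, at any fold change and at an unadjusted p. It became 3 with DESeq2 and with edgeR and the block, 4 with DESeq2 and the block, 0 at a mean of at least 50, after quantile normalization and without both libraries of replicate 3, and 0 to 5 without single libraries. With the replicate block and both libraries of replicate 1, 2 or 3 left out, chosen after seeing the data, there were 4, 6 and 2 lower and 1, 1 and 1 higher members, and 5, 11 and 0 lower and 2, 5 and 0 higher other enzymes. The share of all genes called is not given for these block fits, so their counts cannot be read as a result about the listed genes. The cause of these shifts was not tested, except that left-out libraries leave fewer samples. With 3 libraries per treatment the exact tests cannot go below p = 0.1.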
